A study of Mus musculus with 6 samples.

Results

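Fragments of the mitochondrial tRNAs for glycine and arginine, whose genes lie on either side of Nd3 in the mouse mitochondrial genome, made up 710 of the 38798 distinct tRNA-derived sequences counted in cultured pulmonary artery smooth muscle cells. They were taken as every sequence that the deposited annotation assigns to mt_tRNA-Gly-TCC (589 sequences) or to mt_tRNA-Arg-TCG (121 sequences) and to no other tRNA. All 22 mitochondrial tRNAs together had 6442 sequences. The cells were primary wild-type mouse smooth muscle cells of the pulmonary artery, the vessel that carries blood from the heart to the lung. The hypoxia group was kept in 3% oxygen for 24 hours and the normoxia group under standard culture oxygen, with 3 biological replicates each. The libraries were made by Pandora-seq, a small RNA method in which enzymes first remove RNA modifications that block adapter ligation or reverse transcription. The table held only tRNA fragments, so the labelled cell type was not checked against its markers.

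Mitochondrial DNA is read into long transcripts in which tRNAs sit between the messenger RNAs. Nucleases cut at both ends of each tRNA and so free the tRNA and the messages beside it, after which the bases CCA, which the gene does not encode, are added to the tRNA's 3′ end. Both tRNAs serve the ribosomes inside mitochondria, which make subunits of the respiratory chain. Nd3, between them, encodes a subunit of complex I, the chain's NADH dehydrogenase. Fragments of mature tRNAs are called tRNA-derived small RNAs (tsRNAs).

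On the GRCm38 assembly (mm10), in the GENCODE M21 annotation, mt-Tg, the gene of the glycine tRNA, lies on the plus strand at chrM:9391-9458. It follows directly on mt-Co3, the gene of a cytochrome c oxidase subunit, and is followed with 0 bases between by mt-Nd3 at chrM:9459-9806. The arginine gene mt-Tr lies at chrM:9808-9875, 1 base after mt-Nd3 and 1 base before mt-Nd4l, which encodes another complex I subunit. Both tRNA genes are 68 nt long, and each has its anticodon at bases 31 to 33 (positions are counted from 1 at the 5′ end of the tRNA). The sequences of the genes are shown for the positions used throughout, with the anticodon in capitals.
mt-Tg: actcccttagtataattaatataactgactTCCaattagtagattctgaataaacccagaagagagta
mt-Tr: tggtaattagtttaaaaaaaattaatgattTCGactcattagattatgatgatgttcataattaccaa

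The same base stands at 37 of the 68 positions (54.4%). Each of the 5 base pairs of the anticodon stem can form in both. The acceptor stem, the paired ends of the molecule, has 6 of 7 pairs in the glycine tRNA and 7 of 7 in the arginine tRNA. Guanine and cytosine make up 30.9% of mt-Tg and 22.1% of mt-Tr.

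The fragments that the results turn on are shown by their first and last base in the tRNA. Capitals mark anticodon bases, also where a fragment holds some of them only. Bases 69 to 71 are the added CCA.
Gly 34 to 51: aattagtagattctgaat
Gly 23 to 51: aactgactTCCaattagtagattctgaat
Gly 23 to 57: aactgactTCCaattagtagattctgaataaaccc
Gly 18 to 57: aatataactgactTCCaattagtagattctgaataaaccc
Gly 31 to 51: TCCaattagtagattctgaat
Gly 34 to 55: aattagtagattctgaataaac
Gly 33 to 68: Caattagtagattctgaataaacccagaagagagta
Gly 31 to 68: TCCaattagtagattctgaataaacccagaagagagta
Gly 56 to 71: ccagaagagagtacca
Gly 1 to 33: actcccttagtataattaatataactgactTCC
Arg 32 to 48: CGactcattagattatg
Arg 30 to 48: tTCGactcattagattatg
Arg 57 to 71: cataattaccaacca

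The libraries held 510519 to 2563749 tsRNA counts in hypoxia and 330787 to 2217965 in normoxia. Replicate 1 stood apart from replicates 2 and 3 in both groups. It had the fewest counts of its group, and mitochondrial tRNAs took 15.3% of its counts in hypoxia and 14.4% in normoxia, against 6.0% to 7.33% in the other 4 libraries. Results that rest on it are therefore given within same-numbered pairs of libraries as well, or without it. What the replicate numbers stand for is not given in the labels.

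Fragments of both tRNAs were less abundant in hypoxia than in normoxia in each of the 3 same-numbered pairs, but the group means did not stand apart. In CPM, a library's counts scaled to 1000000 in all, mt_tRNA-Gly-TCC had 17990, 3965 and 3560 in hypoxia replicates 1, 2 and 3, against 27619, 5642 and 8209 in normoxia. The values within a pair differed by factors of 0.651, 0.703 and 0.434 (hypoxia over normoxia), while replicate 1 exceeded the others in both groups, so that the groups overlapped. The means were 8505 ± 8217 CPM in hypoxia and 13823 ± 12016 CPM in normoxia (SD, n = 3 each, two-sided exact permutation test, p = 0.5, where 0.1 is the smallest p that 3 against 3 allows). mt_tRNA-Arg-TCG had 174, 71.8 and 80.5 CPM in hypoxia, against 239, 112 and 96.9 CPM in normoxia. Its pair ratios were 0.730, 0.639 and 0.830, and its groups overlapped as well (108.9 ± 56.9 CPM in hypoxia and 149.3 ± 77.9 CPM in normoxia, exact p = 0.5). Of all 73 tRNA families, 26.0% were lower in hypoxia in every pair, and of the 22 mitochondrial families 45.5%. In bulk RNA such a value cannot tell fewer cells with a fragment from less of it per cell, nor less of a tRNA from less cutting of it.

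**Figure D1:**
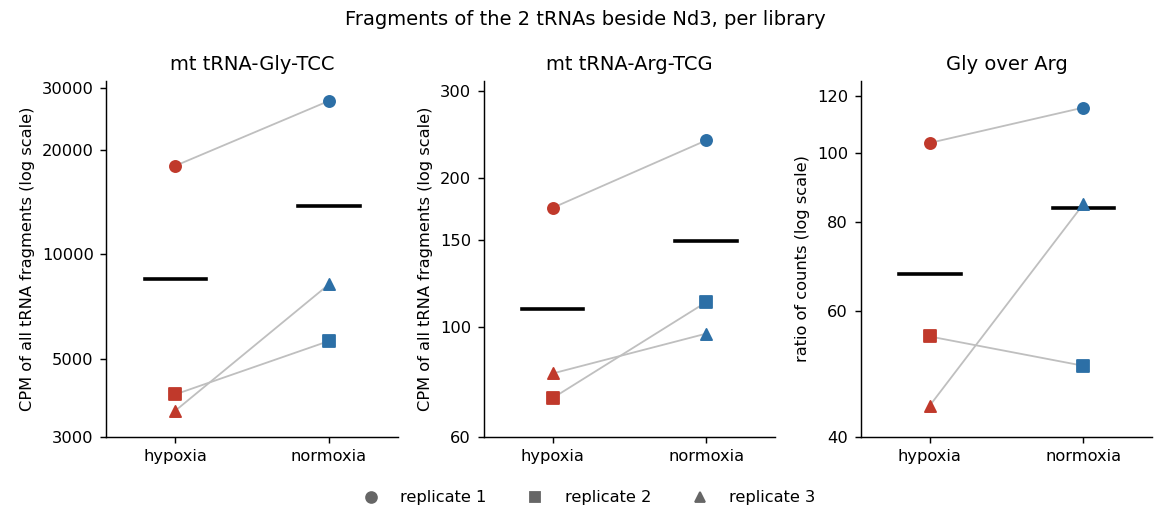
Fragments of the glycine tRNA and of the arginine tRNA in CPM, and the ratio of their counts, in each library (log axes). Symbols are replicates, grey lines join same-numbered libraries and black bars are group means (n = 3). Each line of both tRNAs lies lower in hypoxia, and replicate 1 lies highest in both groups.

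In edgeR's quasi-likelihood test over the 73 families, with the group as the only term, 0 families passed an adjusted p of 0.05 (0%), and at an unadjusted p of 0.05 there were 2 lower (2.74%) and 0 higher. The glycine tRNA had a log2 change of -0.78 (SE 0.52, adjusted p = 0.996) and the arginine tRNA one of -0.49 (SE 0.23, adjusted p = 0.996). With the replicate number as a block, 3 of 73 families (4.11%) passed, all lower in hypoxia. The glycine tRNA fell in that fit (log2 -0.81, SE 0.16, adjusted p = 0.0111), while the arginine tRNA, at log2 -0.49 (SE 0.18, unadjusted p = 0.0192, adjusted p = 0.147), did not pass. The blocked call for the glycine tRNA was kept without pair 1 (log2 -0.88, adjusted p = 0.000107) and without pair 3 (log2 -0.58, adjusted p = 0.0385). Without pair 2 it was lost (log2 -0.88, adjusted p = 0.458), as it was with DESeq2's size factors in place of trimmed-mean scaling (log2 -0.63, adjusted p = 0.0938). The median change of all 73 families in the fit by group alone was -0.07 with trimmed-mean scaling and 0.11 with size factors.

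The list of 22 mitochondrial tRNAs gave 0 calls with the group alone, with 18 of 22 changes below 0 (64.4% of all 73 families were) and a median of -0.20, against -0.07 over all families. With DESeq2's size factors 11 of 22 were below 0, with a median of -0.01, against 0.11 over all families. Leaving out 1 library gave 11 of 22 without hypoxia replicate 2 or normoxia replicate 1, 13 without hypoxia replicate 3, and 20 without hypoxia replicate 1, normoxia replicate 2 or normoxia replicate 3, with medians from -0.54 to -0.02. In the blocked fit 2 of the 22 fell, the tRNAs of glycine and phenylalanine, and 0 rose, with a median of -0.35, against -0.06 over all families. As a share of all mitochondrial counts, the glycine tRNA held 11.8%, 6.61% and 5.89% in hypoxia, against 19.2%, 8.51% and 11.2% in normoxia. It was lower in each pair, and the groups overlapped (exact p = 0.3). The arginine tRNA held 0.114%, 0.120% and 0.133% of mitochondrial counts in hypoxia, against 0.166%, 0.169% and 0.132% in normoxia, lower in 2 of 3 pairs (exact p = 0.2).

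The glycine tRNA gave far more counts than the arginine tRNA in every library. The ratio of their counts was 103, 55.2 and 44.2 in hypoxia and 116, 50.3 and 84.7 in normoxia. On the log2 scale it was 5.98 ± 0.63 in hypoxia, against 6.30 ± 0.61 in normoxia (SD, n = 3 each), a difference of -0.32 that was within the spread between replicates (exact p = 0.6). The genes are equally long, so these ratios are also ratios per length.

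Among the 22 mitochondrial tRNAs ordered by mean CPM per nt of the gene, the glycine tRNA ranked 3 and the arginine tRNA 21. The glycine tRNA averaged 125 ± 121 CPM per nt in hypoxia and 203 ± 177 in normoxia. The tRNA of valine lay above it in 6 of 6 libraries and that of serine (GCT) in 5 of 6. The tRNA of histidine, next below, was lower in 6 of 6, while that of glutamine was above the glycine tRNA in 4 of 6, so that the place of these neighbours depended on the library. The arginine tRNA averaged 1.6 ± 0.84 CPM per nt in hypoxia and 2.20 ± 1.15 in normoxia. The tRNA of cysteine lay above it in 6 of 6 libraries, and that of phenylalanine, the only one ranked lower, lay below it in 6 of 6. The tRNAs of threonine and lysine lay above it in 5 of 6.

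**Figure D2:**
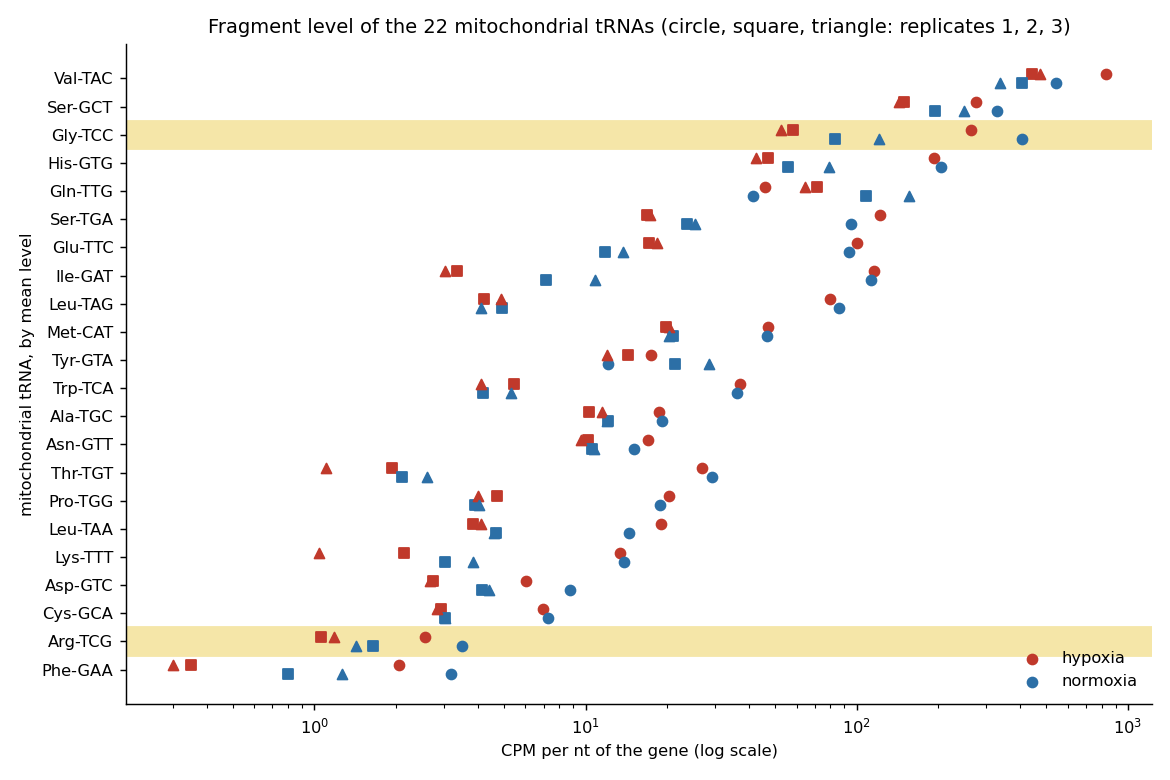
Level of each of the 22 mitochondrial tRNAs in CPM per nt of its gene (log axis), with 3 hypoxia and 3 normoxia libraries each. Shaded rows are the glycine tRNA (rank 3) and the arginine tRNA (rank 21).

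The likeness of 2 families was measured as the root mean square difference of their log2 levels over the 6 libraries, each centred on its own mean. The families most like the glycine tRNA were the mitochondrial tRNAs of histidine (0.23), phenylalanine (0.31) and serine with anticodon TGA (0.36), against a median of 0.80 over the other 72 families. The arginine tRNA came at rank 15 in this order (0.53). The families most like the arginine tRNA were the mitochondrial tRNA of aspartate (0.15), the nuclear selenocysteine tRNA (0.17) and the nuclear glycine tRNA with anticodon TCC (0.17), with a median of 0.58. All these values share the same 6 libraries and the offset of replicate 1.

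Glycine tRNA fragments came mostly from the middle of the molecule, and none of the sequences assigned to it reached past its ends into mt-Co3 or mt-Nd3. Reads that cross these ends may have been left out by the assignment, so this does not show that there were none. The deposited table put 539 of the 589 sequences in the internal class, 24 in the 5′ end class, 23 in the class of 3′ ends without CCA and 3 in the CCA class. In all, 179 sequences (30.4%) were counted in all 6 libraries and 121 (20.5%) in 1 library. Starts clustered at base 34, the first after the anticodon, and at bases 14, 17, 18, 21 and 23 on the 5′ side of the anticodon. Ends clustered at base 51 and base 57. All sequences of the table were 15 to 45 nt long, so starts, ends and lengths are those of fragments in this range. The anticodon lay whole inside 77.1%, 67.7% and 65.0% of glycine counts in hypoxia, and inside 80.6%, 59.4% and 60.3% in normoxia.

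Which end led differed more between replicates than between groups. Base 51 ended 16.2%, 43.4% and 46.9% of glycine counts in hypoxia, against 17.8%, 46.6% and 50.8% in normoxia. Base 57 ended 39.9%, 16.2% and 15.2% in hypoxia, against 51.2%, 13.5% and 13.0% in normoxia. In replicate 1 of both groups base 57 led, and in replicates 2 and 3 of both groups base 51 did. The share of fragments of 18 nt followed the same division, at 0.947%, 10.7% and 12.6% in hypoxia and 0.974%, 16.0% and 17.6% in normoxia, whereas 35 nt, the commonest length over all libraries, took 18.3%, 18% and 17.8% in hypoxia and 21.1%, 15.8% and 16.7% in normoxia. The mean length was 33.2, 29.5 and 29.0 nt in hypoxia and 33.4, 27.5 and 27.9 nt in normoxia (exact p = 0.6).

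**Figure D3:**
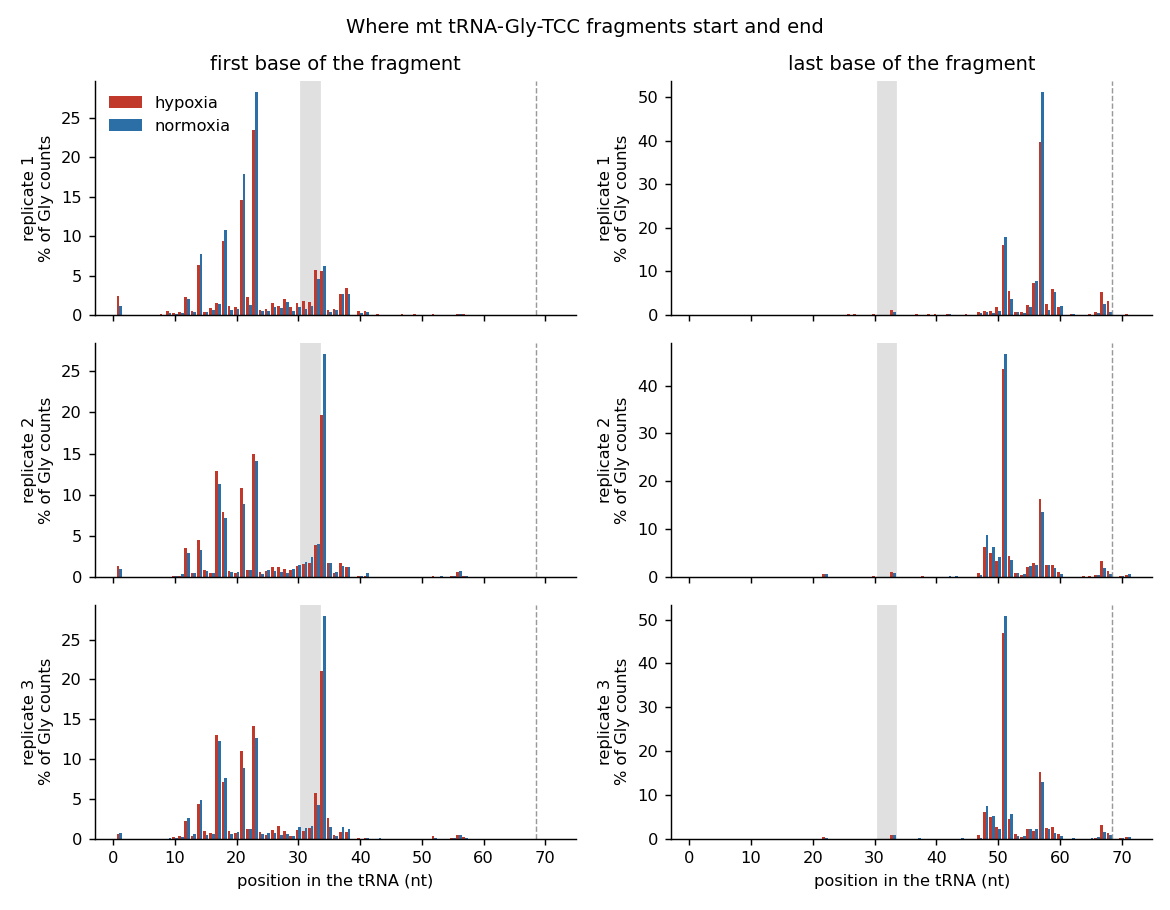
Share of glycine tRNA counts that start (left) and end (right) at each base of the tRNA, with hypoxia and normoxia bars side by side and 1 row per replicate number. Grey marks the anticodon (bases 31 to 33) and the dashed line the last encoded base. Ends at base 57 lead in replicate 1 of both groups and ends at base 51 in replicates 2 and 3 of both groups.

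Fragments that started at base 34, directly after the anticodon, were fewer in hypoxia, without overlap between the groups. Together these 20 sequences had 1003, 783 and 750.3 CPM in hypoxia, against 1708, 1529 and 2296 CPM in normoxia (845 ± 137 and 1844 ± 401, SD, n = 3 each). All 3 hypoxia libraries lay below all 3 normoxia libraries, with pair ratios of 0.587, 0.512 and 0.327 and an exact p of 0.1, the smallest possible. Of all 6452 tsRNAs tested one by one, 2.51% were lower in hypoxia without overlap, but this is a rate for single sequences, not for sums of several. Among the glycine sums by start, end or class compared in CPM, starts at base 34 were the only one without overlap. At an exact p of 0.1, 1 such sum among several can arise by chance, and no rate for sums of other tRNAs was computed. Within the group, the starts at base 34 that ended at bases 48 to 52 overlapped between the groups (exact p = 0.3). So did the one that ended at base 57 (exact p = 0.5). As a share of glycine counts, starts at base 34 were 5.57%, 19.7% and 21.1% in hypoxia and 6.18%, 27.1% and 28.0% in normoxia, lower in each pair and overlapping between groups, with replicate 1 lowest in both (exact p = 0.5).

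The most abundant of these sequences was Gly 34 to 51, at chrM:9424-9441. It had 62.7, 389.7 and 436 CPM in hypoxia, against 148, 831 and 1379 CPM in normoxia. It was lower in all 3 pairs but the groups overlapped, with replicate 1 the lowest library of each. Its log2 change was -1.45 (SE 1.09, adjusted p = 0.9999 in edgeR) with the group alone and -1.35 (SE 0.31, adjusted p = 0.0815) with the replicate block. It thus did not pass in that fit. Blocked fits with another tool, scaling, filter or missing pair were chosen after seeing the data. Of these, this fragment passed by DESeq2 (adjusted p = 0.00185) and by limma voom (adjusted p = 0.0282). It also passed with size factors (adjusted p = 0.0489) and without pair 1 (adjusted p = 0.0315). It did not pass with the block by library size, without a filter, without pair 2 or without pair 3.

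Of the 589 glycine sequences 161, with 90.0% of the counts, passed the filter on low counts and were tested among 6452 tsRNAs. None passed the adjusted threshold, either with the group alone (0% of all tsRNAs) or with the block (0.155% of all). Over all tsRNAs the fit by group alone gave 27 lower and 18 higher ones with an unadjusted p under 0.05. At an unadjusted p of 0.05, with the group alone 3 glycine fragments were lower (1.86%, against 0.418% of all tsRNAs) and 0 higher (against 0.279%). With the block 20 were lower (12.4%, against 2.98% of all) and 1 was higher (0.621%, against 3.41%). In the fit by group alone 122 of 161 log2 changes were below 0 (75.8%, against 48.7% of all), with a median of -0.49, against 0.02 over all tsRNAs. The median was -1.17 (163 of 188 below 0) without hypoxia replicate 1, -0.19 (136 of 237) without hypoxia replicate 2, -0.21 (141 of 236) without hypoxia replicate 3 and -0.17 (103 of 186) without normoxia replicate 1. In CPM 42 of the 161 (26.1%, against 13.4% of all) were lower in hypoxia in every pair and 5 (3.11%, against 15.0%) were higher in every pair. The groups did not overlap for 7 that were lower (4.35%, against 2.51%) and 0 that were higher (against 2.32%). These fragments overlap in sequence and are not separate signals.

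The signs of the fitted changes are given by last base, and the difference between the ends was not tested on them. Of 71 tested fragments ending at bases 48 to 52, 64 had a log2 change below 0 (median -0.71), and of 54 ending at bases 55 to 59, 42 did (median -0.52). Of 19 ending at bases 66 to 68, the last encoded bases, 14 had a change above 0 (median 0.69), and 4 of the 5 fragments higher in every pair were among them. Fragments that ended at base 70 or 71, within or at the end of the CCA, had a median of -0.61, with 3 of 4 below 0. With the replicate block the medians were -0.78, -0.62, 0.35 and -0.62 in the same order. None of these fragments passed the adjusted threshold in either fit.

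**Figure D4:**
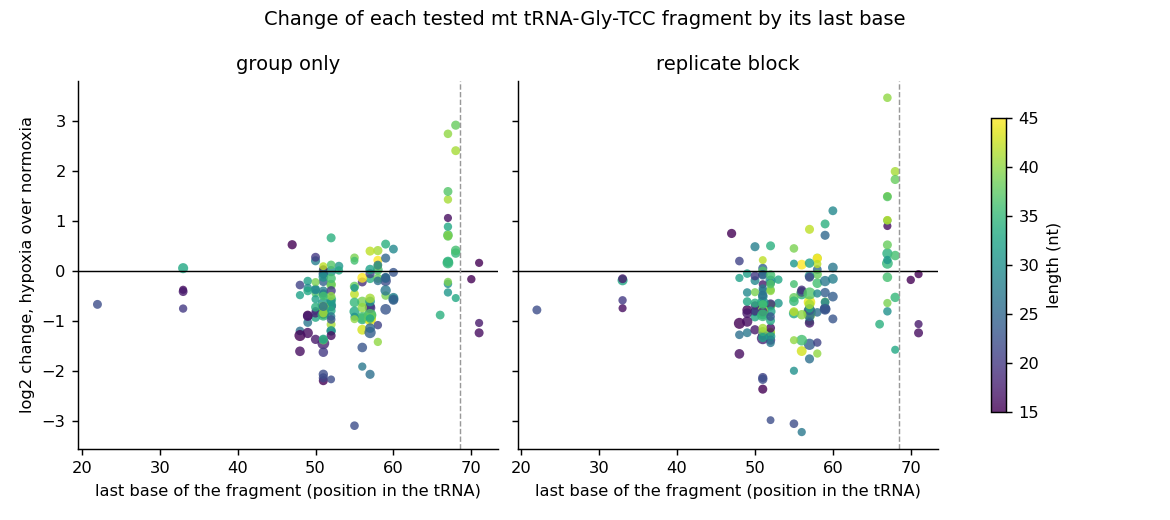
Log2 change (hypoxia over normoxia) of each of the 161 tested glycine tRNA fragments against its last base, by group alone (left) and with the replicate block (right). Colour is fragment length and point size grows with mean CPM. The dashed line marks the last encoded base, and the points just before it, at bases 66 to 68, lie mostly above 0 while those at 48 to 59 lie mostly below.

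The most abundant long fragments lay among those that reached base 51 or 57. Gly 23 to 57 (chrM:9413-9447), the most abundant of all by mean CPM, had 2548, 221 and 173 CPM in hypoxia, against 5003, 274 and 387 CPM in normoxia. This rank rests on replicate 1, as Gly 34 to 51 and Gly 23 to 51 exceeded it in replicates 2 and 3 of both groups. Gly 23 to 57 was lower in each pair (log2 -0.89, SE 1.20, adjusted p = 0.9999, and blocked log2 -0.82, SE 0.28, adjusted p = 0.477). Gly 18 to 57 had 969.6, 84.3 and 63.6 CPM in hypoxia and 1971, 104 and 156 CPM in normoxia, and Gly 23 to 51 had 938, 261 and 224 CPM in hypoxia and 1775, 348 and 475.5 CPM in normoxia. Both were likewise lower in each pair without passing the test, and in all 3 fragments replicate 1 held the highest value of its group. Gly 21 to 57, also among the 5 most abundant, was lower in 2 of 3 pairs, with 1498, 129 and 186 CPM in hypoxia and 3283, 167 and 164 CPM in normoxia.

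The fragments with the smallest unadjusted p among those lower in hypoxia were rare. Gly 31 to 51, which begins with the anticodon, had 6, 20 and 7 counts in hypoxia, against 7, 77 and 58 in normoxia. In CPM its groups did not overlap (11.7, 7.80 and 4.08 in hypoxia, against 21.2, 34.7 and 35.6 in normoxia), at log2 -2.14 (SE 0.73, unadjusted p = 0.0193, adjusted p = 0.9999). Gly 34 to 55 had 3, 4 and 1 counts in hypoxia, against 9, 18 and 36 in normoxia, with a log2 change of -3.10 (SE 0.97, unadjusted p = 0.0129, adjusted p = 0.9999). It passed the filter on low counts only through its normoxia libraries (27.2, 8.12 and 22.1 CPM, against 5.88, 1.56 and 0.583 CPM in hypoxia). Its small p is therefore no separate support for a decrease.

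Fragments that reached the 3′ end of the glycine tRNA took a larger share of its counts in the hypoxia libraries than in the normoxia libraries. Ends at bases 66 to 71 made up 9.49%, 5.69% and 5.44% in hypoxia, against 3.84%, 3.78% and 3.45% in normoxia (6.87% ± 2.27 and 3.69% ± 0.21, SD, n = 3 each). Every hypoxia library exceeded every normoxia library (exact p = 0.1, adjusted p = 0.667 over 40 measures of the 2 tRNAs). Ends at base 67 were 5.30%, 3.34% and 3.13% in hypoxia and 2.57%, 1.76% and 1.5% in normoxia. Ends at base 68, the class of 3′ ends without CCA, were 3.24%, 1.25% and 1.36% in hypoxia and 0.799%, 0.687% and 0.815% in normoxia, and neither measure overlapped between the groups. The internal class was lower in hypoxia, at 94.2%, 97.0% and 97.6%, against 97.9%, 97.7% and 97.9%. Its groups were barely apart, at 97.64% in hypoxia replicate 3 and 97.65% in normoxia replicate 2. Of the 40 measures 6 did not overlap (15.0%), these 4 and 2 of the arginine tRNA. None passed after adjustment, and none could, since 0.1 is the smallest exact p that 3 against 3 allows. Some separations at this p can arise by chance among 40 measures, and no rate for shares of other tRNAs was computed. The 4 glycine measures are not separate results. Ends at bases 67 and 68 lie within 66 to 71, and the internal class is what the end classes leave.

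In CPM the same 3′ fragments were not higher in every pair. Ends at bases 66 to 68 had 1675, 195 and 169 CPM in hypoxia and 1028, 164 and 230.1 CPM in normoxia, with pair ratios of 1.63, 1.19 and 0.735 (exact p = 0.8). The difference in means (hypoxia minus normoxia) was 206 CPM, and -292 CPM without hypoxia replicate 1. All other glycine fragments together were lower in every pair, by factors of 0.614, 0.688 and 0.425. In pair 3 the share of 3′ fragments was thus higher while their level was lower. The commonest 3′ end without CCA, Gly 33 to 68 (chrM:9423-9458), had 76.4, 7.41 and 15.2 CPM in hypoxia and 60.5, 7.66 and 9.82 CPM in normoxia (log2 0.41, SE 0.98, adjusted p = 0.9999). Gly 31 to 68, the fragment with the smallest unadjusted p among those higher in hypoxia, had 48, 4 and 19 counts in hypoxia, against 2, 10 and 2 in normoxia (log2 2.91, SE 1.33, unadjusted p = 0.0609, adjusted p = 0.9999). Gly 28 to 68 followed, with 34, 19 and 5 counts in hypoxia, against 4, 1 and 5 in normoxia (log2 2.40, SE 1.35, unadjusted p = 0.114, adjusted p = 0.9999).

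Within the table, whose sequences were 15 to 45 nt long, the full CCA tail of the glycine tRNA was seen on short fragments only. The 3′ ends before the CCA were mostly longer. The 3 CCA sequences were 15 to 17 nt long, while ends at bases 67 and 68 had median lengths of 35 and 36 nt. CCA fragments had 31.3, 18.7 and 15.2 CPM in hypoxia, against 30.2, 38.8 and 38.7 CPM in normoxia (exact p = 0.2). Their pair ratios were 1.04, 0.483 and 0.392, and pair 1 rested on 16 counts in hypoxia and 10 in normoxia. Among counts that ended at bases 66 to 71, the CCA share was 1.83%, 8.30% and 7.83% in hypoxia and 2.85%, 18.2% and 13.7% in normoxia, lower in each pair but overlapping between the groups (exact p = 0.3). The commonest, Gly 56 to 71, had 9.79, 13.7 and 6.42 CPM in hypoxia, against 15.1, 27.1 and 24.5 CPM in normoxia, without overlap (log2 -1.24, SE 0.74, adjusted p = 0.9999).

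**Figure D5:**
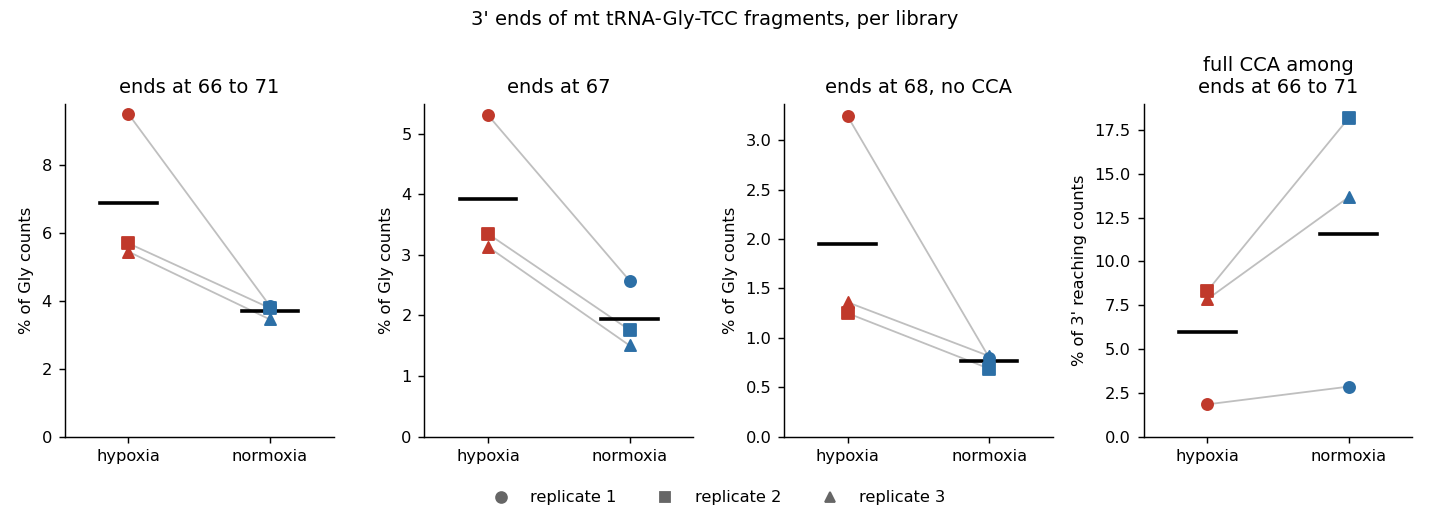
Share of glycine tRNA counts ending at bases 66 to 71, at base 67 and at base 68, and the share of fragments with the full CCA among those ending at bases 66 to 71, per library. Symbols are replicates, lines join same-numbered libraries and black bars are means (n = 3 per group). The first 3 shares are higher in every hypoxia library than in every normoxia library, and the CCA share is lower in hypoxia within each pair.

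Fragments from the 5′ end of the glycine tRNA were scarce and did not move one way. The 5′ end class made up 2.38%, 1.32% and 0.574% of its counts in hypoxia and 1.18%, 0.975% and 0.777% in normoxia (exact p = 0.6). The commonest, Gly 1 to 33, runs from the first base of the tRNA to the last anticodon base. It had 157, 16.8 and 5.25 CPM in hypoxia and 142, 7.66 and 23.3 CPM in normoxia (log2 0.05, SE 1.24, adjusted p = 0.9999).

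The arginine tRNA was seen through 41, 29 and 30 sequences in hypoxia and 37, 39 and 30 in normoxia. Its counts were 89, 184 and 138 in hypoxia and 79, 249 and 158 in normoxia, and 81 of its 121 sequences (66.9%) occurred in 1 library only. The 3 sequences that passed the filter held 26.8% of its counts, and all ended at base 48. None passed the adjusted threshold, and at an unadjusted p of 0.05 there were 0, with and without the block. Arg 32 to 48 (chrM:9839-9855), the commonest, starts at the second anticodon base. It had 17, 17 and 46 counts in hypoxia, against 10, 29 and 23 in normoxia, which gave 33.3, 6.63 and 26.8 CPM against 30.2, 13.1 and 14.1 CPM (log2 0.25, SE 0.74, adjusted p = 0.9999). Arg 30 to 48 had 11.7, 5.07 and 2.33 CPM in hypoxia and 33.3, 4.96 and 10.4 CPM in normoxia (log2 -1.26, SE 0.89, adjusted p = 0.9999). Arg 31 to 48, which begins with the whole anticodon, had 4, 2 and 12 counts in hypoxia, against 3, 11 and 4 in normoxia.

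Ends at base 48 led in the arginine tRNA, with 38.2%, 26.1% and 53.6% of its counts in hypoxia and 50.6%, 36.5% and 43.7% in normoxia. The groups overlapped (exact p = 0.7). Within the hypoxia group the 95% exact binomial intervals of replicates 2 and 3 lay apart, at 19.9% to 33.1% in hypoxia replicate 2 and 44.9% to 62.1% in hypoxia replicate 3. Such intervals cover counting error only and take each read as an independent molecule. Whether several reads came from the same molecule is not known here, so the intervals may be too narrow. Starts at base 30 were a smaller share in hypoxia (8.99%, 7.61% and 5.80%) than in normoxia (16.5%, 10.4% and 22.8%), and ends at base 43 a larger one (7.87%, 25.5% and 8.70%, against 3.80%, 6.83% and 0%), both without overlap (exact p = 0.1, adjusted p = 0.667). In both, the nearest libraries were hypoxia replicate 1 and normoxia replicate 2. As 1 of the 89 counts in hypoxia replicate 1 is a share of 1.12%, both separations rest on very few counts. For the 0 of 158 counts in normoxia replicate 3, a limit of 3 counts stands for a share of 1.90%.

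The 5′ end class of the arginine tRNA was highest in replicate 1 of both groups, at 18%, 0% and 2.90% in hypoxia and 13.9%, 3.21% and 0% in normoxia. Its commonest sequence, Arg 1 to 21, was counted only in the libraries of replicate 1, with 2 counts in hypoxia and 5 in normoxia. With 3 counts as the limit that a count of 0 allows, the class could hold up to 1.63% in hypoxia replicate 2 and 1.90% in normoxia replicate 3. The CCA class held 3 sequences and 16 counts in all, of which Arg 57 to 71 was the commonest with 0, 4 and 0 counts in hypoxia, against 1, 0 and 8 in normoxia. No sequence of the arginine tRNA was in the class of 3′ ends without CCA.

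The run of adenines before the anticodon of mt-Tr differed between the fragments and the annotated gene. The gene has 8 adenines at bases 14 to 21. Of 11 sequences that span the run, 10 carried 9 adenines, with 12, 0 and 4 counts in hypoxia, against 6, 9 and 0 in normoxia, and 1 carried 8, with 2 counts, both in a hypoxia library. Both groups thus held the longer form. The positions given here follow the gene's numbering.

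Fragments of the glycine tRNA were longer than those of the arginine tRNA in all 6 libraries, with mean lengths of 30.1 ± 2.58 nt and 20.5 ± 1.18 nt (SD, n = 6 libraries). The exact two-sided sign-flip test over 6 libraries gave p = 0.0312, the smallest it allows, and an adjusted p of 0.0521 over 5 comparisons. Starts after the anticodon were 24.8% ± 8.87 of glycine counts and 4.77% ± 1.76 of arginine counts, higher in 6 of 6 libraries, and starts inside the anticodon 6.30% ± 0.77 and 18% ± 8.14, lower in 6 of 6, with the same p-values. The share of fragments that hold the whole anticodon was 68.3% ± 8.78 for the glycine tRNA and 72.2% ± 10.5 for the arginine tRNA, higher in 3 of 6 libraries (exact p = 0.594), and the shares of the 5′ end class were 1.20% ± 0.64 and 6.34% ± 7.68 (exact p = 0.125, adjusted p = 0.156).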

How the data were processed

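Small RNA of 3 hypoxia and 3 normoxia cultures was counted, and the deposited values are whole-number counts per sequence, not normalized to depth. The submitters' processing notes name mm10. How reads were aligned, filtered and assigned to tRNAs is not given in the sources at hand. Replicates are biological per the design text, and the p-values measure the spread of these cultures alone.

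Member sequences were placed on the mt-Tg and mt-Tr genes (GENCODE M21, GRCm38) followed by CCA, by exact matching. Arginine sequences that matched only with 1 adenine more in the run at bases 14 to 21 were placed with it. CPM uses each library's total of the table. Tests across 6452 tsRNAs and 73 families were run in edgeR 4.0.16 (R 4.3.3) by quasi-likelihood on the group alone, after filterByExpr and trimmed-mean scaling, with Benjamini-Hochberg adjustment at 0.05. This fit was tested on simulated data. They had less spread between libraries than these data and no offset of replicate 1, so that test does not show its error rate here. The same fit with the replicate number as a block, DESeq2 1.42.0, limma 3.58.1 (voom), other scalings and filters, and each library left out were alternatives. Same-numbered libraries deviated together from their group means (correlations 0.81, 0.53 and 0.45), and replicate 1 stood apart in both groups. Its offset moves the group means, so the other replicates deviate in the opposite direction in both groups. The correlations thus cannot tell whether same numbers mark pairs, and libraries of different numbers were not compared. Shares were compared by two-sided exact permutation in SciPy 1.17.1, adjusted over 40 measures.

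Named fragments were the 5 most abundant tested of each tRNA, the most abundant of each class and the 2 higher and 2 lower with the smallest unadjusted p. The 2 tRNAs, their groups of ends and the lists were chosen with earlier results of these data known.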

Additional observations from a re-analysis of the deposited data

How the results depend on the processing

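Libraries of 330787 to 2563749 counts and the few arginine counts limit the precision, and the smallest exact p of 3 against 3 is 0.1. The blocked fits combined with another tool, scaling, filter or missing pair, and the fits without a pair, were chosen after seeing the data.

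The change of mt_tRNA-Gly-TCC was negative in all settings. It passed with the replicate block (log2 -0.81), in replicates 2 and 3 only (-0.91), and with the block by library size (-0.73), without a filter (-0.81), by DESeq2 (-0.63), by voom (-0.80), without pair 1 (-0.88) and without pair 3 (-0.58), but not with the block by size factors (-0.63) or without pair 2 (-0.88). With the group alone it did not pass in the full set of libraries under any tool, scaling or filter. Nor did it pass with 1 library left out. Leaving out 1 library gave -1.34 to -0.33 for it and -0.59 to -0.35 for mt_tRNA-Arg-TCG, which passed in none. Calls among the 73 families, 0 with the group alone, were 1 by library size, 2 by DESeq2, 8 in replicates 2 and 3 only and 0 to 1 without 1 library. With the replicate block they were 3, and with the block 4 by size factors, 3 by library size, 3 without a filter, 5 by DESeq2, 5 by voom, 13 without pair 1, 0 without pair 2 and 2 without pair 3. Mitochondrial families that fell numbered 1 by DESeq2 and 7 in replicates 2 and 3 only. With the block they were 2, then 0 by size factors, 2 by library size, 2 without a filter, 1 by DESeq2, 4 by voom, 8 without pair 1, 0 without pair 2 and 2 without pair 3. Calls among all tsRNAs were 1 in replicates 2 and 3 only and 10 with the block, then 12 by size factors, 10 by library size, 14 without a filter, 28 by DESeq2, 9 by voom, 26 without pair 1, 0 without pair 2 and 21 without pair 3. Without pair 2 edgeR's block gave 98 lower and 136 higher tsRNAs, and 2 lower and 2 higher families, at an unadjusted p of 0.05. Members among these calls numbered 1 with the block by size factors, DESeq2, voom or without pair 1, each time Gly 34 to 51.

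Changes near 0 turned sign. Gly 1 to 33 was at -0.00038 by size factors, -0.0037 by DESeq2, -0.23 by voom, -0.19 with the block and -0.52 in replicates 2 and 3 only. With the block it was at -0.23 by size factors, -0.19 by library size, -0.12 without a filter, -0.25 by DESeq2, -0.065 by voom, -0.49 without pair 1 and -0.83 without pair 2. Arg 31 to 48 was at 0.031 without a filter. Arg 32 to 48 was at -0.058 by voom, and with the block at -0.0026 by DESeq2, -0.042 without pair 1 and -0.43 without pair 3. The mean arginine length differed by -0.254 nt among sequences that pass the filter. Leaving out 1 library gave log2 ranges of -1.80 to 1.34 for Gly 1 to 33, -2.72 to 0.95 for Gly 18 to 57, -2.30 to 1.33 for Gly 21 to 57, -2.66 to 1.0 for Gly 23 to 57, -0.63 to 1.39 for Gly 33 to 68, -0.82 to 0.48 for Arg 31 to 48 and -0.31 to 0.64 for Arg 32 to 48. Differences (hypoxia minus normoxia) ranged in percentage points from -0.0322 to 0.873 for the glycine 5′ class, -0.222 to 0.0673 for its CCA class, -0.509 to 10.1 for fragments with its whole anticodon, -13.2 to 6.76 for ends at 51, -10.2 to 10.5 for ends at 57, -4.26 to 5.35 for the arginine 5′ class and -11.5 to 2.30 for arginine ends at 48. Mean lengths ranged from -0.389 to 2.82 nt (glycine) and -0.247 to 1.30 nt (arginine). In CPM the range was -10061 to 1579 for the glycine tRNA, -73.2 to 4.27 for the arginine tRNA, -6243 to 2604 for glycine ends at 55 to 59 and -292 to 483 for ends at 66 to 68. Glycine and arginine CPM turned positive without normoxia replicate 1 only. The glycine share reaching the 3′ end kept its sign, at 1.87 to 3.90 percentage points, as did starts at base 34 at -1157 to -773 CPM.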
